A study of Mus musculus with 8 samples.

Results

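Uchl1, Tm4sf1, Ptprn and Plac8 were expressed in mouse glomerular mesangial cells (MMC), and after scaling to the bulk of the genes less of their RNA was counted with AGO2 in cells from miR-379KO mice than in cells from WT mice. In total RNA, Uchl1 and Tm4sf1 were higher in both miR-379KO libraries than in both WT libraries, as were 9.89% of all genes tested. Ptprn and Plac8 overlapped between the genotypes, and none of the 4 passed the test over all genes. These 4 genes, of 24639 gene entries in each count list, were chosen by their low AGO2-IP values in miR-379KO MMC. Their AGO2-IP counts and every value built on them are therefore given as a description, without a test. The total RNA contrast is not the one that chose them and was tested, but the genes were picked as expressed and with earlier results of these data known, so its p-values are not independent of the choice.

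MMC are the contractile pericyte-like cells that hold the capillary loops of the kidney filter. WT and miR-379KO MMC were primary cultures from C57BL/6J mice, grown in RPMI medium with foetal bovine serum and given no treatment. The knockout mice carried a short CRISPR-Cas9 nickase deletion at miR-379 on both alleles, in every cell of the animal. Each genotype had 2 total RNA libraries and 2 AGO2-IP libraries, named A and B, which makes 8 libraries in 4 groups. AGO2-IP libraries hold RNA fragments recovered with anti-AGO2 beads after UV cross-linking. The ages of the mice and the number of mice behind each culture are not given in the sources used here, so the p-values measure the spread between these libraries, which may be technical.

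AGO2 is the Argonaute protein that binds a microRNA and is guided by it to messenger RNAs. Bases 2 to 8 of the microRNA, the seed, pair with the target, usually in the 3′-UTR, and bound targets are commonly degraded or translated less. When a microRNA is lost, its targets may leave AGO2 and their total RNA may go up, so AGO2-bound and total RNA together show more than either assay alone. Uchl1 encodes a ubiquitin C-terminal hydrolase that is abundant in neurons. Tm4sf1 encodes an L6 family membrane protein known from endothelial and tumour cells. Ptprn encodes IA-2, a receptor-type phosphatase family member without classical phosphatase activity that sits in the membrane of dense-core secretory granules and is an autoantigen in autoimmune diabetes. Plac8 encodes a small cysteine-rich protein first described in placenta and also known from myeloid cells.

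The mature sequences of miR-379, from RefSeq on GRCm38.p6, are shown with the seed in capitals because the seed sets which letters were searched for in the 4 messenger RNAs. The 5p arm lies at chr12:109709065-109709085 and the 3p arm at chr12:109709102-109709123, both on the plus strand.
miR-379-5p: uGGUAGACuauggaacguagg
miR-379-3p: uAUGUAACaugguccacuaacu

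The 7-base matches to the seeds are GTCTACC for 5p and GTTACAT for 3p, searched on the messenger strand. None of the 4 genes held either match in its 3′-UTR. Of 19135 genes with an annotated 3′-UTR, 4.06% held the 5p match there and 6.90% the 3p match. Tm4sf1 held 1 GTCTACC in its 5′-UTR, at chr3:57301967-57301973 on the minus strand. Anywhere in the messenger RNA, 12.3% of genes held GTCTACC. The site is shown with the match in capitals and 9 bases on each side.
Tm4sf1 5′-UTR: ctttatgagGTCTACCagtaagtgt

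A 6-base match to 5p, TCTACC, which overlaps the longer one, was found in no 3′-UTR of the 4 genes, against 21.1% of all genes. It stood once in the coding sequence of Plac8, 3 times in that of Ptprn and nowhere in Uchl1. Anywhere in the messenger RNA, 48.2% of genes held TCTACC. The 6-base match to 3p, TTACAT, stood once in the 3′-UTR of Plac8 and at 2 places in that of Tm4sf1, and 28.2% of genes held it in the 3′-UTR. The coding match of Plac8 to 5p (chr5:100559772-100559777) and its 3′-UTR match to 3p (chr5:100553764-100553769), both on the minus strand, are shown with the match in capitals.
Plac8 coding sequence: tgaggactcTCTACCgaacccgat
Plac8 3′-UTR: ttttttaccTTACATtttaggtag

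The genes differed in size. Uchl1 (chr5:66676121-66687234, plus strand) has 1147 exonic bases with a 3′-UTR of 306. Tm4sf1 (chr3:57285611-57387736, minus strand) has 3424 exonic bases and the longest 3′-UTR, 2145 bases. Ptprn (chr1:75247035-75264497, minus strand) has 3710 exonic bases, a 3′-UTR of 508 bases and 59.6% GC. Plac8 (chr5:100551589-100572253, minus strand) is the shortest, with 959 exonic bases and a 3′-UTR of 274. The medians over genes with a 3′-UTR were 2751 exonic bases and 828 bases of 3′-UTR. Uchl1 is overlapped on the other strand by Uchl1os, which had 2 to 9 counts in each library. The Tm4sf1 locus is overlapped by Gm51274 and Gm5276, 1 on the same strand, which are not analysed here, and their part in the Tm4sf1 counts was not tested.

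Total RNA libraries held 17168230 to 22660743 gene counts. WT AGO2-IP libraries held 17095021 and 9586299 and miR-379KO AGO2-IP libraries 6545652 and 5587611. Of the AGO2-IP counts, 80.0 to 89.0% fell on Rn45s (ribosomal RNA precursor) and Lars2, so that 1875037 and 1605632 WT counts and 1308149 and 1115782 miR-379KO counts were left for all other genes. Mir379 itself had no count in total RNA and 0 to 4 in AGO2-IP, so the deletion could not be checked from these counts. By qPCR the study reported a loss of miR-379 in glomeruli of miR-379KO mice and in AGO2-IP of their MMC. No replicate pair agreed within sampling noise. Of 11 mesangial and pericyte markers, 9 exceeded 1 CPM in total RNA, with a summed level of 22536 to 25064 CPM in WT and 27791 to 29198 in miR-379KO MMC. Endothelial markers summed to at most 3.35 CPM and leukocyte markers to at most 5.31 CPM in total RNA, with Cd3e at 0.

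CPM below are counts scaled to the library total and to TMM factors, which line up the bulk of the genes within each assay. Uchl1 total RNA counted 1717 reads for WT A, 1524 for WT B, 3291 for miR-379KO A and 2900 for miR-379KO B. This gave 102 and 83.4 CPM for WT against 143 and 170 CPM for miR-379KO, or 92.9 ± 13.4 against 157 ± 19.3 CPM (SD, n = 2). Both miR-379KO libraries lay above both WT libraries, as for 9.89% of all genes tested. The fitted log2 fold change was 0.75 ± 0.22 (SE, 95% interval 0.21 to 1.30), a level 1.69 times that of WT. In bulk cultures more cells that express a gene and more RNA per cell cannot be told apart.

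For Tm4sf1 total RNA, WT A and B had 4132 and 4874 counts, while miR-379KO A and B had 10244 and 8856. The levels were 246 and 267 CPM for WT against 445 and 520 CPM for miR-379KO, or 257 ± 14.3 against 483 ± 52.9 CPM (SD, n = 2). Again the groups did not overlap, with miR-379KO higher, as for 9.89% of all genes tested. The log2 fold change was 0.91 ± 0.24 (SE, 95% interval 0.34 to 1.49), a level 1.88 times that of WT.

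For Ptprn total RNA, WT A and B had 1775 and 1707 counts, while miR-379KO A and B had 2748 and 1659. In CPM these were 106 and 93.4 for WT against 119 and 97.5 for miR-379KO, or 99.7 ± 8.80 against 108 ± 15.6 (SD, n = 2). The groups overlapped, since miR-379KO B lay between the WT libraries. The log2 fold change was 0.12 ± 0.22 (SE), with a 95% interval of −0.40 to 0.65, and without miR-379KO A it was −0.0079.

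For Plac8 total RNA, WT A and B had 2136 and 4086 counts, while miR-379KO A and B had 2195 and 3670. In CPM these were 127 and 224 for WT against 95.4 and 216 for miR-379KO, or 176 ± 68.0 against 156 ± 85.0 (SD, n = 2). The libraries lettered B were the high ones in both genotypes and the groups overlapped. The log2 fold change was −0.18 ± 0.45 (SE), and its 95% interval of −1.26 to 0.91 leaves room for a change of either sign. Without WT B it was 0.29 and without miR-379KO A 0.32, both of the opposite sign.

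No total RNA change of the 4 genes passed the test (edgeR quasi-likelihood, Benjamini-Hochberg adjusted p = 1.0 for each over 12321 genes). Across all genes tested, 0 passed in edgeR (0%), 0 passed in DESeq2, and 91 had an unadjusted p under 0.05 in edgeR. Tm4sf1 and Uchl1 were among the 43 genes with an unadjusted p under 0.05 that were higher in miR-379KO (0.349% of genes tested), with unadjusted edgeR p-values of 0.00783 and 0.0142. The unadjusted edgeR values of Ptprn and Plac8 were 0.591 and 0.708. Groups that did not overlap, with miR-379KO higher, were seen for 2 of the 4 genes and for 9.89% of all genes. By the size of the change Tm4sf1 ranked 93 and Uchl1 152 from the highest of 12321 genes. An exact permutation test of 2 against 2 libraries cannot give a p below 0.333.

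**Figure D1:**
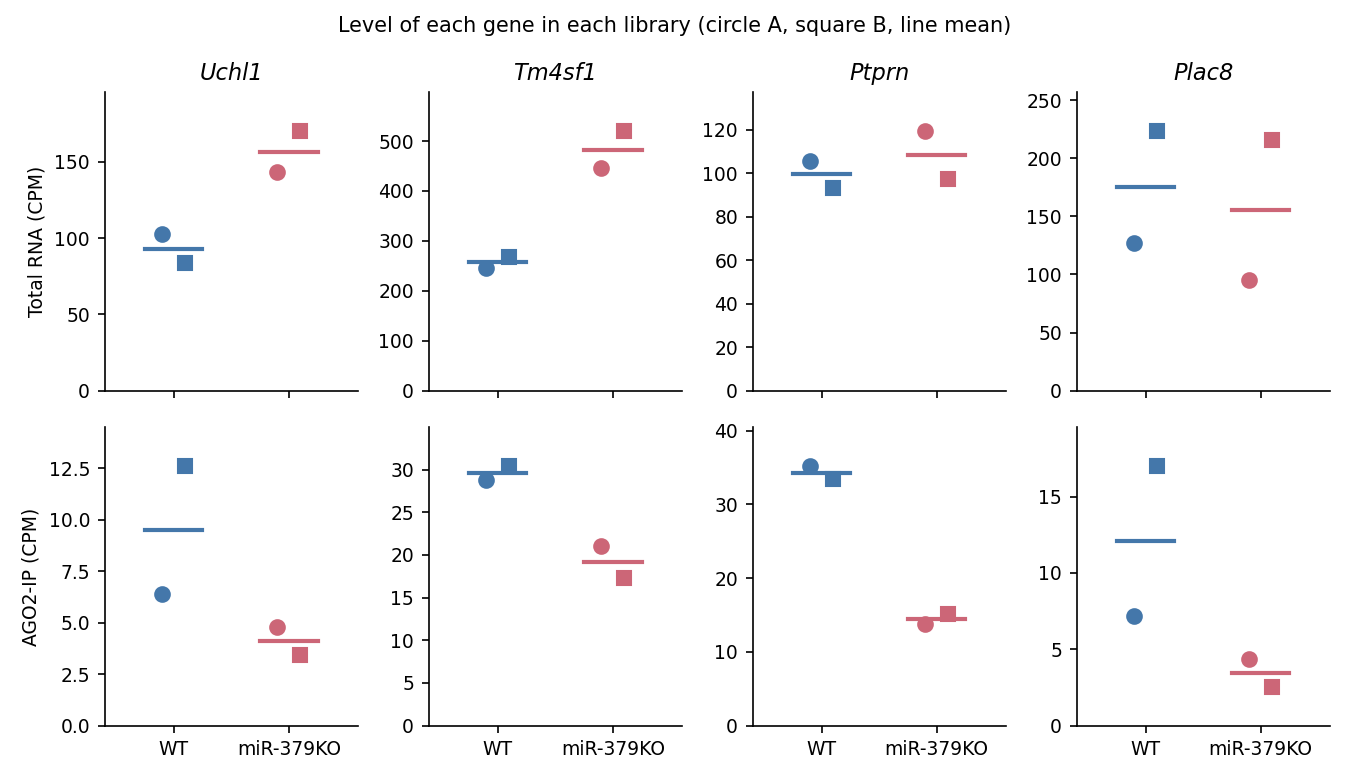
CPM (TMM-scaled, linear axes from 0) of Uchl1, Tm4sf1, Ptprn and Plac8 in total RNA (top row) and AGO2-IP (bottom row), with WT in blue, miR-379KO in red, circles for A, squares for B and lines for the mean of 2 libraries. Total RNA of Tm4sf1 went from a mean of 257 CPM in WT to 483 CPM in miR-379KO while its AGO2-IP mean went from 29.6 to 19.1 CPM, and Plac8 total RNA was higher in the B library of each genotype.

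In AGO2-IP, where low miR-379KO values chose the 4 genes, Uchl1 counted 65 reads for WT A, 109 for WT B, 41 for miR-379KO A and 27 for miR-379KO B. The levels were 6.37 and 12.6 CPM for WT against 4.81 and 3.45 CPM for miR-379KO. Means were 9.49 ± 4.41 and 4.13 ± 0.962 CPM (SD, n = 2), and the WT libraries differed from each other 1.98-fold. The fitted log2 fold change was −1.18 ± 0.32 (SE), and −0.66 without WT B.

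For Tm4sf1 AGO2-IP, WT A and B had 294 and 263 counts, while miR-379KO A and B had 179 and 135. In CPM these were 28.8 and 30.4 for WT against 21.0 and 17.2 for miR-379KO, or 29.6 ± 1.12 against 19.1 ± 2.65 (SD, n = 2). The log2 fold change of −0.63 ± 0.23 (SE) was the least negative of the 4.

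For Ptprn AGO2-IP, WT A and B had 359 and 289 counts, while each miR-379KO library had 118. In CPM these were 35.2 and 33.4 for WT against 13.8 and 15.1 for miR-379KO, or 34.3 ± 1.26 against 14.5 ± 0.871 (SD, n = 2). Replicates lay closest together in this gene, and the log2 fold change was −1.25 ± 0.23 (SE), a level 0.421 times that of WT.

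For Plac8 AGO2-IP, WT A and B had 73 and 147 counts, while miR-379KO A and B had 37 and 20, and 20 was the lowest count of any of the 4 genes. In CPM these were 7.16 and 17.0 for WT against 4.34 and 2.56 for miR-379KO, or 12.1 ± 6.96 against 3.45 ± 1.26 (SD, n = 2). The log2 fold change was −1.78 ± 0.42 (SE), a level 0.291 times that of WT, and −1.08 without WT B. Library B was the higher of the pair in total RNA of both genotypes and in WT AGO2-IP, and the lower in miR-379KO AGO2-IP. The A minus B differences were −0.81 (WT) and −1.17 (miR-379KO) in total RNA and −1.19 (WT) and 0.66 (miR-379KO) in AGO2-IP on the log2 scale.

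On the TMM scale both miR-379KO AGO2-IP libraries lay below both WT libraries for 4 of 4 genes, as they did for 32.2% of the 13505 genes tested. Of all genes, 9.52% passed the edgeR test (adjusted p under 0.05) as lower in miR-379KO AGO2-IP and 21.4% as higher. These shares are background for a contrast that selected the 4 genes, and nothing is read from the members' own count. The number of genes that passed as lower was 1286, and 155 without miR-379KO B. The members ranked 7 (Plac8), 77 (Ptprn), 123 (Uchl1) and 1844 (Tm4sf1) from the lowest change.

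AGO2-IP changes differed by total RNA level over all genes. Among genes with a mean of over 1000 to 10000 total RNA counts, which hold all 4, 854 of 3414 (25%) passed as lower in miR-379KO AGO2-IP, and the median log2 fold change was −0.43. Among genes with no total RNA count the median was 1.94 and 882 of 998 passed as higher. Within the range of 1000 to 10000 counts the ranks from the lowest were 4 for Plac8, 28 for Ptprn, 48 for Uchl1 and 935 for Tm4sf1. In that range 350 genes with up to 1500 exonic bases, the class of Uchl1 and Plac8, had a median of −0.59, and 1400 genes of over 3000 to 6000 bases, the class of Tm4sf1 and Ptprn, a median of −0.40.

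**Figure D2:**
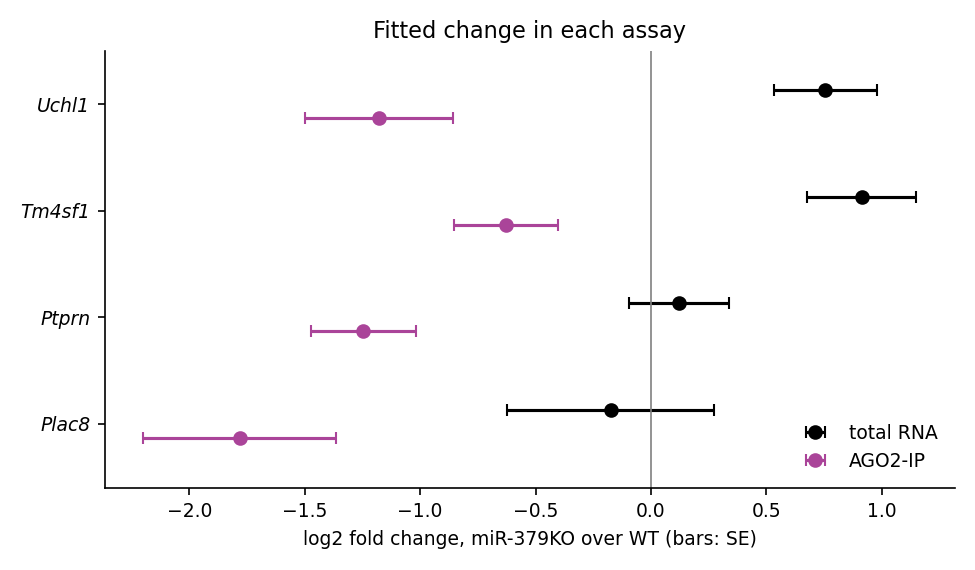
Fitted log2 fold change of miR-379KO over WT for each gene (horizontal axis, bars SE), in total RNA (black) and AGO2-IP (purple), 2 libraries per genotype and assay. Uchl1 and Tm4sf1 lie at 0.75 and 0.91 in total RNA and at −1.18 and −0.63 in AGO2-IP, and the total RNA bars of Ptprn and Plac8 cross 0.

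The lowest AGO2-IP changes among 4845 expressed genes (mean of at least 100 total RNA and 50 AGO2-IP counts) were those of Actg2 (−3.28), Des (−3.01), Mgp (−2.27), Cx3cl1 (−1.81) and Plac8 (−1.78). Actg2 and Des, genes of the contractile apparatus, also had total RNA changes below 0, at −1.47 and −1.36 on the log2 scale, though neither passed (edgeR adjusted p = 1.0). Des total RNA counts were 1801 (WT A) and 14442 (WT B) against 5000 and 2252 for miR-379KO, so only WT B was high. In AGO2-IP Des counted 136 (WT A) and 756 (WT B) against 65 and 37, and its change had an SE of 1.38. Ptprn stood 41st, Uchl1 69th and Tm4sf1 1194th in the order of AGO2-IP change. The pattern of Uchl1 and Tm4sf1, lower in AGO2-IP with total RNA above WT, was shared in sign by 1842 of the 4845 genes. Of the 1194 genes at or below the AGO2-IP change of Tm4sf1, 636 had a total RNA change above 0.

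**Figure D3:**
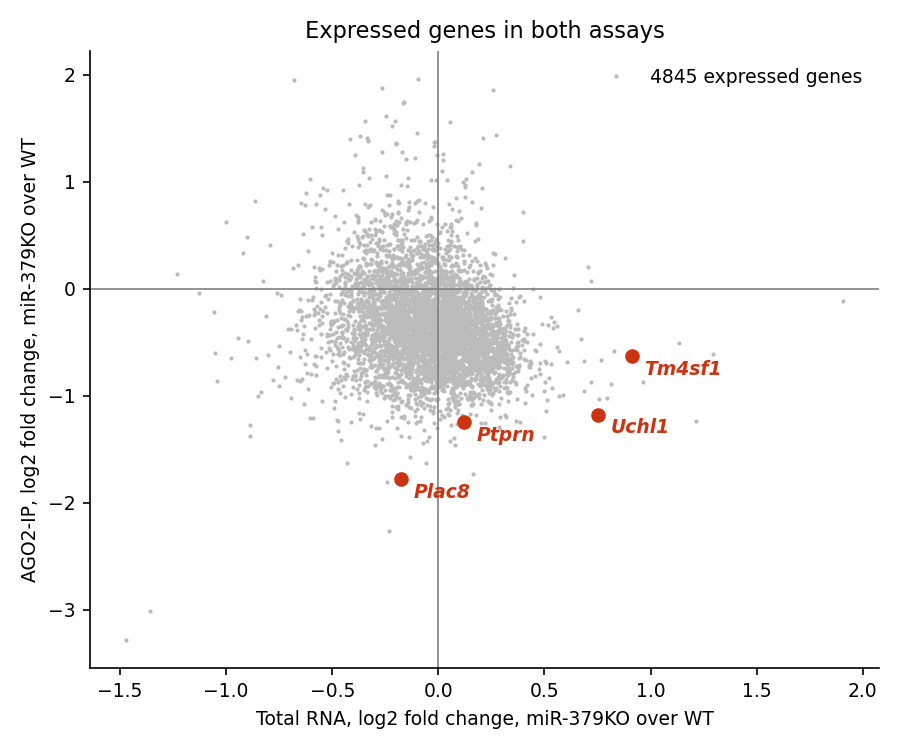
Log2 fold change of miR-379KO over WT in total RNA (horizontal) against AGO2-IP (vertical) for 4845 expressed genes (grey) with the 4 genes in red. Uchl1 (0.75, −1.18) and Tm4sf1 (0.91, −0.63) lie right of most genes, Ptprn (0.12) and Plac8 (−0.18) lie near 0 in total RNA, and most expressed genes lie below 0 in AGO2-IP.

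The AGO2-IP change less the total RNA change, fitted on all 8 libraries, was −2.16 ± 0.43 for Uchl1, −1.75 ± 0.38 for Tm4sf1, −1.59 ± 0.34 for Ptprn and −1.79 ± 0.90 for Plac8 on the log2 scale (SE). For Uchl1 and Tm4sf1 both assays contributed, with opposite signs. For Ptprn and Plac8 the AGO2-IP change was the larger of the 2 in size, and the SE of Plac8 was the widest.

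Recovery was also expressed as the ratio of AGO2-IP to total RNA in libraries of the same letter, with CPM taken over all genes but Rn45s and Lars2. Uchl1 ratios were 0.313 (A) and 0.739 (B) for WT against 0.203 and 0.137 for miR-379KO. Tm4sf1 ratios were 0.589 and 0.557 for WT against 0.285 and 0.225 for miR-379KO. Ptprn ratios were 1.67 and 1.75 for WT against 0.701 and 1.05 for miR-379KO. The WT and miR-379KO ratios did not overlap in these 3 genes. The share of all genes without overlap on this measure was not counted. In AGO2-IP alone, on the TMM scale, both miR-379KO libraries lay below both WT libraries for 32.2% of genes tested. Because the ratios contain the AGO2-IP values that chose the genes, nothing is read from the lack of overlap.

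Plac8 ratios were 0.283 and 0.372 for WT against 0.275 and 0.0804 for miR-379KO, so that in the A libraries the ratio was nearly the same in both genotypes. The median ratio of 3655 genes with a mean of at least 1000 total RNA counts was 0.626 and 0.680 for WT against 0.624 and 0.605 for miR-379KO. Of the 4 genes, Ptprn stood above that median in all 4 pairs of libraries. Whether libraries of the same letter came from the same cells is not stated in the sources used here.

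**Figure D4:**
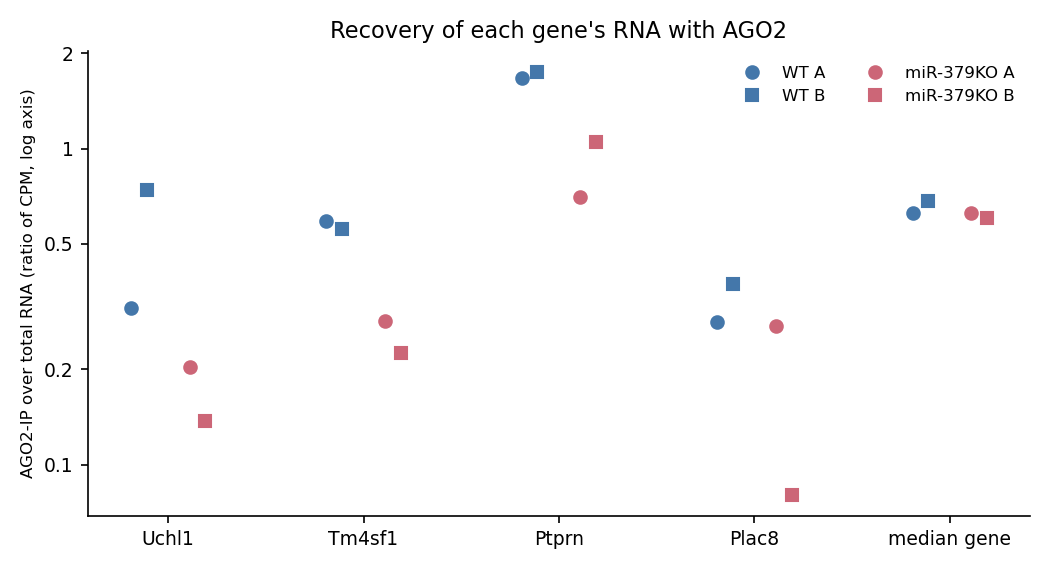
Ratio of AGO2-IP to total RNA (log axis, CPM over all genes but Rn45s and Lars2) for each gene and for the median of 3655 expressed genes, with WT in blue, miR-379KO in red, circles for A and squares for B. Tm4sf1 went from 0.589 and 0.557 in WT to 0.285 and 0.225 in miR-379KO, the median gene stayed between 0.605 and 0.680, and Plac8 A had 0.283 in WT and 0.275 in miR-379KO.

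The AGO2-IP fold changes depended on the scale. Without TMM factors, as CPM of all gene counts, Tm4sf1 had 22.3 ± 7.24 CPM in WT and 25.8 ± 2.25 in miR-379KO AGO2-IP (SD, n = 2), a log2 change of 0.21 of the opposite sign. On that scale the median over all genes moved to 0.74, and relative to it Tm4sf1 stood at −0.54, Uchl1 at −1.20, Ptprn at −1.13 and Plac8 at −1.83. With Rn45s and Lars2 left out of the total, the median over all genes was 0.30 and the changes were −0.31 for Tm4sf1, −0.88 for Uchl1, −0.92 for Ptprn and −1.50 for Plac8. Another scale moves all genes by about the same amount, so the position relative to the median gene hardly moves by construction. That position does depend on which genes set the median. With a minimum mean of 50 counts, Tm4sf1 stood at −0.26, Uchl1 at −0.80, Ptprn at −0.87 and Plac8 at −1.41 relative to the median. The sign of the Tm4sf1 change depended on the scale, and those of Uchl1, Ptprn and Plac8 did not on these scales.

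The level of counts at genes that MMC do not express also differed between the genotypes. Over 5193 protein-coding genes without a total RNA count, AGO2-IP libraries held 1.35 (A) and 0.913 (B) counts per kilobase for WT against 3.08 and 3.52 for miR-379KO. At that rate a gene of the length of Plac8 would have 1.29 and 0.876 counts for WT against 2.96 and 3.38 for miR-379KO. Plac8 counts were 56.4 and 168 times this level for WT against 12.5 and 5.92 times for miR-379KO. For Ptprn the multiples were 71.7 and 85.3 for WT against 10.3 and 9.04 for miR-379KO. After the level was subtracted the log2 changes were −1.35 for Uchl1, −0.72 for Tm4sf1, −1.39 for Ptprn and −1.97 for Plac8, each at least as large as without subtraction. This direction was fixed in advance, since the level was higher in miR-379KO and the genes were chosen for low miR-379KO values. Nothing is read from it.

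**Figure D5:**
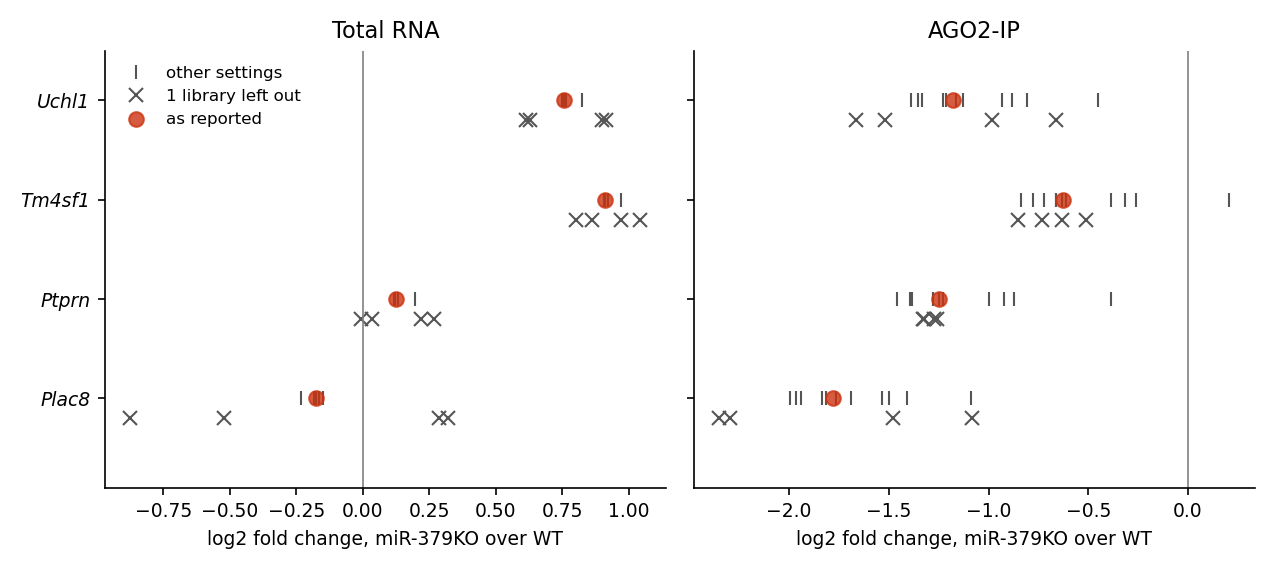
Log2 fold change of miR-379KO over WT (horizontal) for each gene in total RNA (left) and AGO2-IP (right) as reported (red), under other settings (ticks) and with 1 library left out (crosses). In total RNA Plac8 ran from −0.87 to 0.32 and Ptprn from −0.01 to 0.27, Uchl1 and Tm4sf1 stayed above 0, and in AGO2-IP Tm4sf1 crossed to 0.21 when TMM factors were not used.

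Per kilobase of exon, total RNA of WT MMC held 183 ± 70.9 CPM of Plac8, 81.0 ± 11.7 of Uchl1, 74.9 ± 4.19 of Tm4sf1 and 26.9 ± 2.37 of Ptprn (SD, n = 2). The level of Ptprn was below the others by more than the spread, and Uchl1 and Tm4sf1 were not separated. In miR-379KO total RNA the order was Plac8 162 ± 88.6, Tm4sf1 141 ± 15.4, Uchl1 137 ± 16.8 and Ptprn 29.2 ± 4.20 CPM per kilobase (SD, n = 2), in which the first 3 overlapped. In WT AGO2-IP the levels per kilobase were 12.6 ± 7.26 for Plac8, 9.25 ± 0.339 for Ptprn, 8.65 ± 0.328 for Tm4sf1 and 8.27 ± 3.84 for Uchl1 (SD, n = 2), and the replicates of Plac8 and of Uchl1 spread over the levels of Ptprn and Tm4sf1. In miR-379KO AGO2-IP Tm4sf1 was highest at 5.59 ± 0.775, and Ptprn, Uchl1 and Plac8 had 3.90 ± 0.235, 3.60 ± 0.839 and 3.60 ± 1.32 CPM per kilobase (SD, n = 2).

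Profiles of log2 CPM over the 8 libraries, centred within each assay, were compared by Euclidean distance with those of 4855 other genes. This measure uses the values that chose the members and serves as a description. Dusp4 (a MAP kinase phosphatase, distance 0.492), S100a6 (a calcium-binding protein, 0.501) and Sgk1 (a serum-induced kinase, 0.634) were nearest to Uchl1. Foxs1 (a forkhead factor, 0.425), Anxa1 (annexin A1, 0.464) and S100a6 (0.551) were nearest to Tm4sf1. Like Uchl1 and Tm4sf1, these 5 neighbours had fitted total RNA changes above 0 and AGO2-IP changes below 0. Picking the nearest profiles largely fixes these signs, which 1842 of 4845 expressed genes also had.

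The nearest profiles to Ptprn were Pgrmc2 (0.238), Tnfaip2 (0.386) and Piezo1 (0.389), and those to Plac8 were Slc6a9 (0.452), Serpinf1 (0.641) and Cd248 (0.710). Pgrmc2, of the progesterone receptor membrane component family, had log2 changes of 0.11 in total RNA and −1.18 in AGO2-IP, close to those of Ptprn. Slc6a9, a glycine transporter, had total RNA counts of 383 and 798 for WT against 393 and 551 for miR-379KO, with the letter B library high as in Plac8. The median distances to all genes were 1.36 for Uchl1, 1.17 for Tm4sf1, 1.09 for Ptprn and 1.95 for Plac8. Among the 4 genes themselves Uchl1 and Tm4sf1 were nearest, at 0.817.

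Of 13 other UCH deubiquitinase and ubiquitin supply genes, 12 were tested in total RNA and none passed in edgeR, with none at an unadjusted p under 0.05 and a median log2 fold change of 0.17 against −0.01 over all genes. In AGO2-IP, Usp5 (which disassembles free ubiquitin chains, −0.66, edgeR adjusted p = 0.0293) fell, none passed as higher, and 10 of 12 did not pass. The median was −0.49, against −0.43 among all genes with a mean of over 1000 to 10000 total RNA counts. Among genes of over 100 to 1000 counts, which include Uchl3 and Uchl5, the median was −0.08. As lower passed 25% of genes in the higher range and 5.14% in the lower one. Over all genes 9.52% passed as lower and 21.4% as higher. The close relatives Uchl3 and Uchl5 had 173 to 229 and 374 to 440 total RNA counts and total RNA log2 changes of −0.07 and −0.06, and Bap1 had 827 to 1399 counts and a change of 0.11.

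Of 27 other L6 and tetraspanin genes, the multi-pass membrane proteins around Tm4sf1, 21 were tested in total RNA and none passed in edgeR or had an unadjusted p under 0.05. The median log2 change there was 0.08. In AGO2-IP 20 were tested, of which 7 fell and 2 rose, with a median of −0.51. Over all genes 9.52% passed as lower and 21.4% as higher. In the range of over 1000 to 10000 total RNA counts 25% passed as lower. In that of over 100 to 1000, which includes Cd82, 5.14% did so, and the list has genes in both ranges. The largest falls were Cd82 (−1.06, edgeR adjusted p = 0.0220), Cd63 (−1.03, edgeR adjusted p = 0.00324), Cd9 (−0.94, edgeR adjusted p = 0.00932) and Tspan31 (−0.86, edgeR adjusted p = 0.00972). Tm4sf4 (1.66, edgeR adjusted p = 0.0293) and Cd53 (1.5, edgeR adjusted p = 0.00988), a leukocyte tetraspanin, rose and had 1 to 10 AGO2-IP counts per WT library. Of the other L6 genes Tm4sf4 had 0 to 7 total RNA counts per library, and Tm4sf5, Tm4sf19 and Tm4sf20 had 0 to 2, against at least 4132 for Tm4sf1.

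Ptprn was expressed while most secretory granule genes listed with it had too few total RNA counts for the test, and others were expressed. Of 20 such genes 8 had enough total RNA counts for the test, none passed in edgeR, and none had an unadjusted p under 0.05. Its paralog Ptprn2 had 0 to 3 total RNA counts. Snap25 and Pcsk1 had none, and Chga at most 2. Cpe, a prohormone carboxypeptidase also made outside endocrine cells, had total RNA counts of 16456 and 9298 for WT against 16825 and 10742 for miR-379KO. Among the others, Pam had 1409 to 2385, Vamp2 368 to 697, Sntb2 507 to 644 and Rab3a 172 to 332 total RNA counts.

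In AGO2-IP 13 of the granule genes were tested. Cpe fell (−0.94, edgeR adjusted p = 0.0170). In its class, genes with a mean of over 10000 total RNA counts, 109 of 237 passed as lower and the median was −0.67. Scg3 (2.90), Pcsk2 (2.42), Snap25 (2.38) and Cadps (2.24) led 5 genes that rose, each with at most 2 total RNA counts in a library and 0 to 8 AGO2-IP counts in WT. Over all genes 21.4% passed as higher, and 882 of 998 did so among genes with no total RNA count. The list's AGO2-IP median was 0.91, against −0.01 over all genes, 1.94 over genes with no total RNA count and 1.67 over genes with a mean of up to 10. The PLAC8 domain relatives Plac8l1 and Cnfn had at most 1 total RNA count and were not tested.

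Uchl1 and Ptprn are also genes of neurons and endocrine cells, and Plac8 of myeloid cells. Of 8 neuronal and neuroendocrine markers 2 exceeded 1 CPM in total RNA, and Snap25, Rbfox3 and Ins2 were at 0. Their summed total RNA level was 88.5 to 104 CPM in WT and 90.8 to 192 in miR-379KO. Of 8 leukocyte markers 1 exceeded 1 CPM, with sums of 1.85 to 5.31 CPM in WT and 1.88 to 5.13 in miR-379KO. In AGO2-IP the neuronal marker sums were 6.82 to 6.86 CPM in WT and 12.9 to 13.3 in miR-379KO. Leukocyte marker sums were 5.09 to 5.98 CPM in WT and 12.4 to 16.5 in miR-379KO. Counts per kilobase at genes without a total RNA count were also higher in miR-379KO AGO2-IP, at 3.08 and 3.52 against 1.35 and 0.913 in WT. Their part in these low sums was not tested. Mesangial markers in AGO2-IP summed to 3528 to 3575 CPM in WT and 1588 to 2262 in miR-379KO, in the same direction as the 4 genes, and their part in the result was not tested. Podocyte markers summed to 240 to 628 CPM in total RNA with Ptpro at 0, and epithelial markers to 133 to 202 CPM.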

How the data were processed

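Gene counts were used as the authors deposited them, as whole reads per gene without normalization, 1 list per library. Per the labels and the study's methods, reads were aligned to mm10 with TopHat on Bowtie2 2.1.0.1 and counted by strand on RefSeq genes with HTSeq 0.6.0. A stranded mRNA kit gave the total RNA libraries and small RNA adapter ligation the AGO2-IP libraries, so assay and protocol change together. Rows for reads outside genes were left out of library sizes. Genes held 76.2 to 80.2% of the listed reads in total RNA, 26.8 and 26.9% in WT AGO2-IP and 12.1 and 11.1% in miR-379KO AGO2-IP.

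miR-379KO and WT MMC were compared in edgeR 4.0.16 (R 4.3.3) with TMM factors, filterByExpr with a minimum count of 10 and robust quasi-likelihood F tests, on the 4 libraries of an assay or on all 8 for contrasts between assays. A gene was called when its p-value, adjusted by Benjamini-Hochberg over all genes tested, was under 0.05. Entries were matched to RefSeq on GRCm38.p6 by symbol or synonym (98.7%), and for 3′-UTRs and coding sequence RefSeq transcripts were used.

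The 4 genes, the gene lists and the markers were chosen with earlier results of these data known. Named were the 4 genes, genes of the lists that passed (at most 4 per direction) and close relatives, the 3 nearest profiles of each gene among genes that averaged 50 counts or more in each assay, and the 5 expressed genes lowest in AGO2-IP. A gene that met this rule and a marker are not reported here. Alternatives were DESeq2 1.42.0, RLE factors, TMM without Rn45s and Lars2, no filter, 1 fit of all 8 libraries, a minimum mean of 50 counts, the letter as a replicate block, omission of each library, subtraction of the level at silent genes, and CPM without TMM. TMM factors from genes that averaged 100 total RNA counts or more were added after the data were seen.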

Additional observations from a re-analysis of the deposited data

Results flagged for a closer look

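The fitted changes of Uchl1 and Tm4sf1 had opposite signs in the 2 assays, although neither total RNA change passed the test (edgeR adjusted p = 1.0) and the AGO2-IP change is the one that chose the genes. For each, both miR-379KO libraries lay above both WT libraries in total RNA, as for 9.89% of all genes, and below both in AGO2-IP on the TMM scale, as for 32.2%. Of 4845 expressed genes 1842 had the same signs. The AGO2-IP change less the total RNA change was −2.16 for Uchl1 and −1.75 for Tm4sf1 on the log2 scale. The difference was not tested, since the genes were chosen on the AGO2-IP values that it contains. Without TMM factors the AGO2-IP change of Tm4sf1 was 0.21, so its opposite signs depend on that scale.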

How the results depend on the processing

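The total RNA call changed for none of the 4 genes in 11 alternatives each, and 0 genes passed in any of them. Adjusted p-values ran from 0.360 to 1.0 for Uchl1 and Tm4sf1, from 0.946 to 1.0 for Ptprn and from 0.803 to 1.0 for Plac8. With 1 library left out the total RNA log2 fold change ran from 0.61 to 0.91 for Uchl1, from 0.80 to 1.04 for Tm4sf1, from −0.0079 to 0.27 for Ptprn and from −0.87 to 0.32 for Plac8. Ptprn changed sign without miR-379KO A (−0.0079), and Plac8 without WT B (0.29) or miR-379KO A (0.32). With the letter as a replicate block the total RNA changes were 0.76, 0.91, 0.12 and −0.23 for Uchl1, Tm4sf1, Ptprn and Plac8, 1103 genes passed as lower and 2714 as higher in AGO2-IP, and no call of a total RNA change was altered. Deviations of same-letter libraries correlated at −0.07 in total RNA (10763 genes) and 0.04 in AGO2-IP (4971 genes), so the letters were not taken to pair the genotypes.

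In AGO2-IP the changes with 1 library left out ran from −1.67 to −0.66 for Uchl1, from −0.85 to −0.51 for Tm4sf1, from −1.33 to −1.26 for Ptprn and from −2.35 to −1.08 for Plac8. The values of Uchl1 and Plac8 nearest 0 came without WT B. As CPM without TMM, the changes were −0.45 for Uchl1, 0.21 for Tm4sf1, −0.39 for Ptprn and −1.09 for Plac8. With a minimum mean of 50 counts Tm4sf1 had −0.26 and Ptprn −0.87, without a filter −0.84 and −1.46, in a fit of all 8 libraries −0.78 and −1.40, with TMM from genes with total RNA counts −0.38 and −1.0, and without Rn45s and Lars2 in the total −0.31 and −0.92. Background subtraction gave −1.39 for Ptprn. The median over all genes was 0.36 without a filter and 0.23 with TMM from genes with total RNA counts.

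Genes lower in AGO2-IP numbered 299 in DESeq2, 2366 without a filter, 40 at a minimum mean of 50 counts, 310 in a fit of all 8 libraries, 404 with TMM from genes with total RNA counts, and 155 to 1361 with 1 library left out (155 without miR-379KO B, 791 without WT B). Genes higher numbered 503 in DESeq2, 234 at the minimum mean of 50, 376 in a fit of all 8 libraries, and 763 to 1976 with 1 library left out (763 without miR-379KO B, 1560 without WT B, 1879 without miR-379KO A). The cause was not tested.

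The AGO2-IP change less the total RNA change ran, with 1 library left out, from −2.37 to −1.31 for Uchl1, −1.94 to −1.37 for Tm4sf1, −1.79 to −1.28 for Ptprn and −2.41 to −0.80 for Plac8. For Uchl1, Tm4sf1 and Ptprn it was −1.75, −1.35 and −1.18 at the minimum mean of 50 and −1.73, −1.33 and −1.15 with TMM from genes with total RNA counts. For Tm4sf1 and Ptprn it was −1.49 and −1.32 with DESeq2 and −1.49 and −1.32 with RLE factors. AGO2-IP over total RNA, with 1 library left out, ran in WT from −1.69 to −0.61 for Uchl1, −0.98 to −0.49 for Tm4sf1, 0.68 to 0.94 for Ptprn and −2.45 to −0.84 for Plac8, and in miR-379KO from −3.24 to −2.73, −2.54 to −2.23, −0.86 to −0.50 and −3.70 to −2.60. With RLE factors it was −0.70 in WT and −2.20 in miR-379KO for Tm4sf1 and −0.44 in miR-379KO for Ptprn. Over the whole messenger RNA 1 gene, Tm4sf1, held GTCTACC. With 20 to 147 AGO2-IP counts, Uchl1 and Plac8 were the least precise.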
